A study of Homo sapiens with 15 samples.

Results

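The kinetochore is the protein assembly that builds on centromeric chromatin and holds each chromosome to the spindle. Its 36 genes described here were taken by name from a fixed list, with all regions of a name summed, and all 36 of them occur among the 19531 gene names of the tables. They are 14 genes of the inner, centromere-bound layer (CENPA, CENPC, CENPH, CENPI, CENPK, CENPL, CENPM, CENPN, CENPO, CENPP, CENPQ, CENPT, CENPU and CENPW), 2 of the fibrous corona (CENPE and CENPF), 4 of the NDC80 complex (NDC80, NUF2, SPC24 and SPC25), 4 of the MIS12 complex and its KNL1 partner (DSN1, MIS12, NSL1 and ZWINT), 3 of the SKA complex (SKA1, SKA2 and SKA3), 6 of the spindle checkpoint (BUB1, BUB1B, BUB3, MAD1L1, MAD2L1 and TTK) and 3 that load CENP-A (HJURP, MIS18A and OIP5). The rule uses names alone and no measured value.

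The inner layer recognises the CENP-A nucleosome and recruits the MIS12 and NDC80 complexes, of which NDC80 binds microtubules. The spindle checkpoint, built from BUB and MAD proteins and the kinase encoded by TTK, delays anaphase while kinetochores are unattached. In cycling human cells many of these genes belong to the programme of late cell cycle genes that the DREAM complex represses in G1 and that B-MYB and FOXM1 activate towards mitosis, and new CENP-A is deposited after mitosis, in early G1.

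U2OS is an established human osteosarcoma line. All cells were grown without arrest, were given 4-thiouridine and EdU together for 45 min, were fixed with glyoxal and methanol and were sorted by EdU signal and DNA content into G1, Early_S, Late_S and G2 fractions by flow cytometry. The title of the series calls the cells synchronised, and its design text writes G2/M for the fraction labelled G2. Each phase has 3 libraries whose RNA was alkylated, which makes incorporated 4-thiouridine read as a T-to-C change (T>C), and 3 more libraries labelled No_alkylation, of a phase that is not given, measure the background of such changes. The labels do not say that replicates were separate cultures, so p-values measure the spread between libraries. Libraries were made from 500 ng of RNA at the 3′ end of polyadenylated transcripts.

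Levels are given in CPM, read counts scaled to a common library size. The steady-state level counts all reads of a gene, scaled with TMM over the 12 alkylated libraries. The nascent level counts its T>C reads among all T>C reads, scaled with TMM of the T>C reads. The labelled share is the percentage of its reads that carry a T>C change. TMM sets the bulk of genes to no change, so a nascent level says how a gene moved relative to other nascent RNA. A gene is called at an adjusted p under 0.05 in edgeR's quasi-likelihood test, adjusted by Benjamini-Hochberg over all genes tested, and all 36 members passed the filters on low counts in each quantity. Averages are given with the SD of 3 libraries, log2 differences with their standard error (SE) or a 95% interval from it.

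The alkylated libraries held 16096695 to 21803972 reads, and 1812606 to 4037464 of them carried T>C changes, against 175212 to 182253 in the No_alkylation libraries. The T>C share of a library was 21.5 to 22.8% in G1, 17.9 to 18.9% in Early_S, 9.95 to 10.1% in Late_S, with 9.77 to 10.4% in G2. T>C reads were fewest in Late_S and G2. The summed level of 8 G2 and mitosis genes was 707 to 726 CPM in G1, 1129 to 1173 CPM in Early_S, 1671 to 1709 CPM in Late_S and 2047 to 2179 CPM in G2, and that of 8 G1 and G1/S genes was 1973 to 2046 CPM in G1, 1318 to 1376 CPM in Early_S, 1111 to 1154 CPM in Late_S and 1023 to 1127 CPM in G2. The phases did not overlap on the first list, and Late_S and G2 overlapped on the second. Of 12 mesenchymal and bone markers 11 had reads (TWIST1 had 0), with a sum of 6758 to 7046 CPM in G1, 6497 to 6562 CPM in Early_S, 6117 to 6293 CPM in Late_S and 5936 to 6096 CPM in G2. Of 8 blood markers 6 had any read (CD3E and LYZ had 0), with a sum of at most 0.796 CPM in any library. All 8 epithelial markers had reads, with sums of 1702 to 1981 CPM in G1, 1397 to 1693 CPM in Early_S, 1368 to 1477 CPM in Late_S and 1251 to 1397 CPM in G2, mostly from KRT8 and KRT18. These sums moved with phase beside the members' levels, and their part in the results was not tested.

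Promoters are shown because genes of the late cell cycle programme are known for cell cycle homology elements near the start (TTTGAA or TTCGAA) and for NF-Y sites (CCAAT), while S-phase genes are known for E2F sites (the letters TTCCCGC, the letters TTCGCGC and the letters TTGGCGC were searched). RefSeq (build GRCh38.p14) gave windows of 250 bases before to 50 bases after the start for 30 of the 36 members; CENPH, CENPL, CENPM, BUB3, TTK and MIS18A were not matched. The windows printed are those of the 5 members with the smallest nascent G2 against G1 p whose window holds a searched motif on either strand. HJURP is at chr2:233854486-233854785 on the minus strand, CENPF at chr1:214602945-214603244, CENPA at chr2:26785806-26786105, NDC80 at chr18:2571307-2571606 and BUB1B at chr15:40160819-40161118, these 4 on the plus strand. Capitals mark matches, a CCAAT of the other strand reading ATTGG and a TTTGAA of the other strand reading TTCAAA; in NDC80 a TTCAAA and a TTCGAA abut.
HJURP: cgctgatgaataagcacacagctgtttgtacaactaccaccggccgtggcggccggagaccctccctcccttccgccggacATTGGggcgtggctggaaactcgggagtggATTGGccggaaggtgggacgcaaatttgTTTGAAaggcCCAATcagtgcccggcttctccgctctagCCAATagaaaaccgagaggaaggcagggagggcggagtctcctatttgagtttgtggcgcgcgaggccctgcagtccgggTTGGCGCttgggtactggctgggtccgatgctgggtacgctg
CENPF: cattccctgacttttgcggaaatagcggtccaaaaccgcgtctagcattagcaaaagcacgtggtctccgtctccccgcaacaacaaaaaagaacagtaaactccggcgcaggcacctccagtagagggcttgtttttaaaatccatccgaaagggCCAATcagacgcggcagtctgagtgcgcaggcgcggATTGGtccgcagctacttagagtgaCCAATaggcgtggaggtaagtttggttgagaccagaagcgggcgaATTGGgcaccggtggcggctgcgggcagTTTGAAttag
CENPA: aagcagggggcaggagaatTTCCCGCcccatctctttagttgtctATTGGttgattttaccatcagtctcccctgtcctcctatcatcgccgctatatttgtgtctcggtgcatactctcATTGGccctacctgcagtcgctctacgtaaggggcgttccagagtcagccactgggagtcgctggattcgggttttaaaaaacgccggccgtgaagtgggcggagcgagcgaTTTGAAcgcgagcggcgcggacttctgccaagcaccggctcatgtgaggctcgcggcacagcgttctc
NDC80: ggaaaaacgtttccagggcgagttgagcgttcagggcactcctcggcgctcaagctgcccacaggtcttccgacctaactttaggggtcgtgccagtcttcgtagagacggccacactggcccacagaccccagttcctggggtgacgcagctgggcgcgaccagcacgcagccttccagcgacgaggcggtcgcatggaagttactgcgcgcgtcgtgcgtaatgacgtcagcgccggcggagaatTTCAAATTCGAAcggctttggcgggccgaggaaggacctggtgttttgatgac
BUB1B: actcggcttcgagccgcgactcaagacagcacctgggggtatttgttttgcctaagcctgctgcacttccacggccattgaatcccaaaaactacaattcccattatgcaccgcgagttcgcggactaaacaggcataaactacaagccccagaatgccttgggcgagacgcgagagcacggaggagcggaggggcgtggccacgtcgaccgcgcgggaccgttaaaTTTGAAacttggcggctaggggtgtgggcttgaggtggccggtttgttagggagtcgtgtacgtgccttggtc

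TTTGAA lies at -18 in CENPA and at -23 in BUB1B, counted to its first base from the annotated start, and the NDC80 pair begins at -3 and 3. CENPF has it at 40 beside CCAAT at -94, -58, -33 and 12, and HJURP has it at -111 beside CCAAT at -169, -139, -101 and -72. Over the 34 windows of the 30 matched members, 52.9% held TTTGAA or TTCGAA on either strand, against 16.4% of all 35116 windows of the same length. With the whole motif within 40 bases of the start, a distance chosen after the matches were seen, it was 41.2% against 4.06%. The motifs of CENPF and CENPO, which begin at 40 and 36, end beyond that distance and were not counted there. CCAAT stood in 58.8% of member windows against 34.6% of all windows, CCAAT together with TTTGAA or TTCGAA in 35.3% against 6.38%, and any of the E2F-like motifs in 38.2% against 11.03%. By call, TTTGAA or TTCGAA was found for 13 of the 16 matched members whose steady-state level rose in G2 against G1 and for 4 of the other 14. By nascent call it was 6 of 7 matched members that rose and 11 of the other 23. CCAAT was found for 9 of the 16 matched members whose steady-state level rose and for 9 of the other 14, and by nascent call for 3 of 7 and 15 of 23. These letters are a description of the windows, with no test. The window of CENPE, the member with the highest G2 over G1 steady-state fold, held none of the searched motifs.

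Across the phases the steady-state level of 23 of the 36 members changed, against 34.1% of all genes called. Early_S was higher than G1 for 15 members and lower for 2 (all genes 12.5% higher and 11.8% lower), Late_S was higher than Early_S for 13 and lower for 1 (6.99% and 4.25%), and G2 was higher than G1 for 18 and lower for 1 (11.1% and 10.0%). No member was called between G2 and Late_S by edgeR (0.0872% of all genes higher and 0.0582% lower). An unadjusted edgeR p under 0.05 was found there for 6 of the 36 members and for 1315 of 13755 genes. DESeq2 called 1 member, BUB3. The median log2 difference over the members was 0.33 in Early_S against G1, 0.17 in Late_S against Early_S, 0.11 in G2 against Late_S and 0.58 in G2 against G1, where the median gene was at -0.00, -0.04, 0.00 and -0.01 in the same order. The mean was highest in G2 for 19 members, in Early_S for 9, and in G1 and Late_S for 4 each. Highest phases were not counted over all genes, so these counts only describe the members. In bulk RNA of a sorted fraction, fewer cells of a kind and less RNA per cell cannot be told apart.

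**Figure D1:**
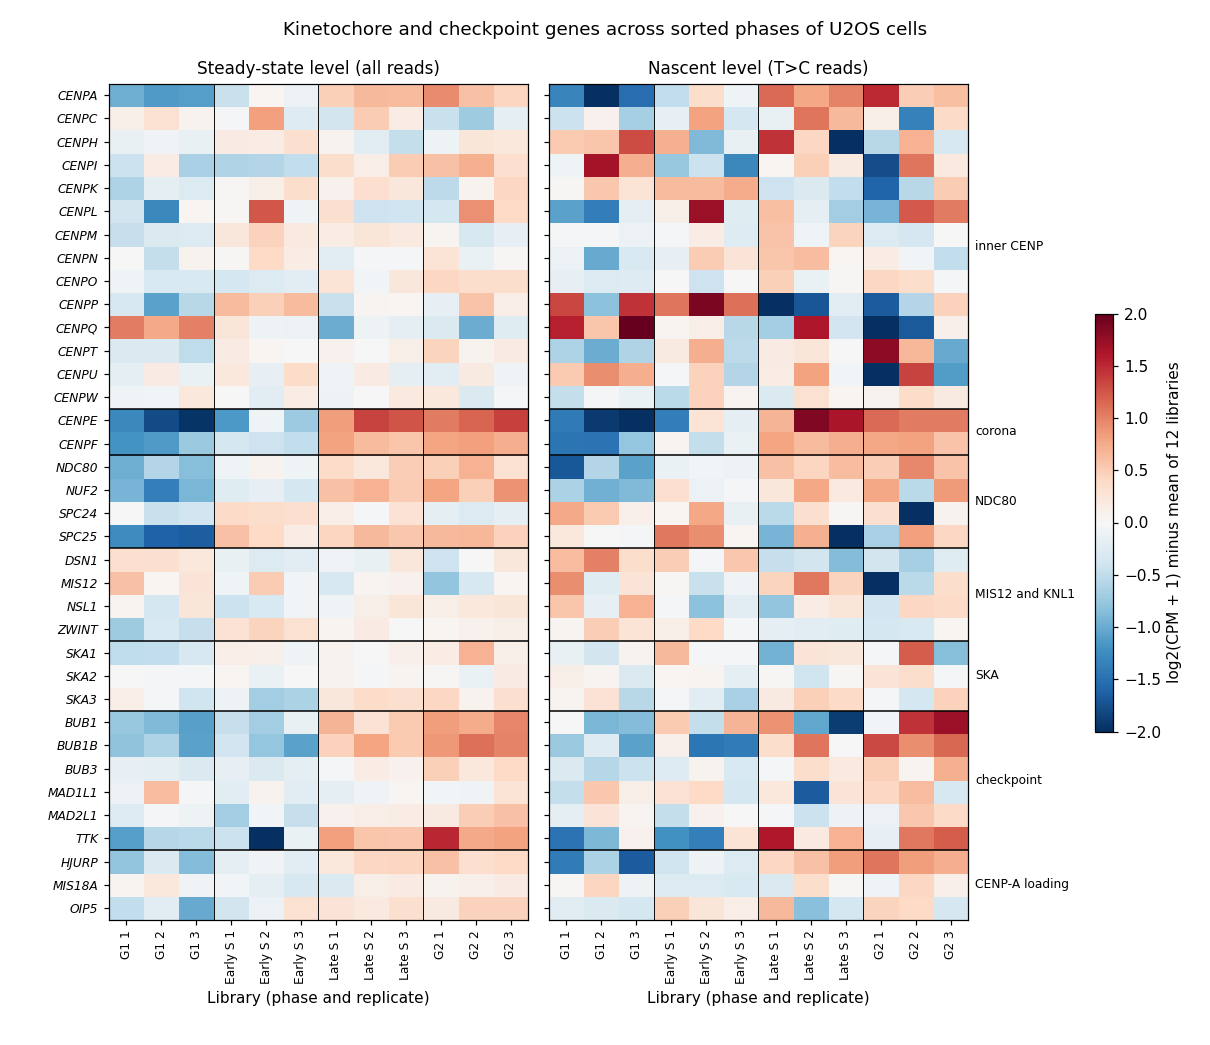
Each row is a member and each column an alkylated library; colour gives log2(CPM + 1) minus the row's mean over the 12 libraries, ending at -2 and 2, for the steady-state level (left) and the nascent level (right). CENPA, CENPE, CENPF, NDC80, NUF2, BUB1B and HJURP run from blue in G1 to red in Late_S and G2 on both sides, and CENPQ runs the other way on the left.

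CENPA, which encodes the histone H3 variant that marks the centromere, rose in both steps from G1 to Late_S. Its steady-state level was 21.3, 18.9 and 19.4 CPM in the G1 libraries, 31.1, 44.1 and 39.4 in Early_S, 60.0, 67.1 and 66.9 in Late_S and 83.2, 64.7 and 57.6 in G2. Every library of a later phase lay above every library of the phase before it up to Late_S, while the Late_S and G2 libraries overlapped. Early_S stood above G1 (log2 difference of 0.94 ± 0.16 (SE), edgeR adjusted p = 2.17e-05). Late_S stood above Early_S (log2 difference of 0.76 ± 0.16 (SE), edgeR adjusted p = 0.000778). G2 was 3.44-fold above G1 (edgeR adjusted p = 1.65e-11).

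Among the other 13 inner genes, 3 more rose in G2 against G1 (CENPI, CENPO and CENPP) and 1 fell (CENPQ). Of all genes 11.1% were higher and 10.0% lower there. CENPI, of the group that holds CENPH, CENPI, CENPK and CENPM, averaged 7.65 ± 2.56 CPM in G1, 6.09 ± 0.279 CPM in Early_S, 12.1 ± 1.72 CPM in Late_S and 14.3 ± 1.99 CPM in G2. It rose in Late_S against Early_S (log2 difference of 0.997 ± 0.32 (SE), edgeR adjusted p = 0.0337), a call that was lost without each Early_S library and without Late_S replicates 1 and 3 (log2 difference 0.89 to 1.04). Its G2 level was above G1 by 0.90 (edgeR adjusted p = 0.0349), which was lost without G1 replicate 1 or 3 or G2 replicate 1 or 2. CENPK averaged 30.8 ± 4.85 CPM in G1, 44.5 ± 5.42 CPM in Early_S, 46.2 ± 3.88 CPM in Late_S and 40.5 ± 12.9 CPM in G2. CENPM averaged 62.4 ± 4.63 CPM in G1, 97.8 ± 10.0 CPM in Early_S, 90.9 ± 3.02 CPM in Late_S and 71.7 ± 9.51 CPM in G2. Both rose in Early_S against G1 (log2 difference 0.53 and 0.65, edgeR adjusted p = 0.0317 and 8.41e-05). The CENPK call was lost with DESeq2 (log2 difference 0.51, adjusted p = 0.0538) and without G1 replicate 1 or Early_S replicate 3. It was also lost with the largest region only (log2 difference 0.45, edgeR adjusted p = 0.204). CENPM was highest in Early_S, and its G2 level was not called against G1 (log2 difference 0.20, 95% interval -0.04 to 0.44). CENPH, the remaining gene of that group, had 41.9, 44.2 and 41.7 CPM in the G1 libraries, 52.1, 51.3 and 57.9 in Early_S, 49.0, 40.03 and 32.9 in Late_S and 43.0, 55.0 and 53.9 in G2 and was not called (edgeR adjusted p = 0.0919 over the phases).

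Of the CENPO group, CENPO averaged 59.5 ± 5.47 CPM in G1, 57.1 ± 2.58 CPM in Early_S, 78.0 ± 9.17 CPM in Late_S and 90.7 ± 2.52 CPM in G2. It rose in Late_S against Early_S (log2 difference of 0.45 ± 0.13 (SE), edgeR adjusted p = 0.0143), a call lost without Late_S replicate 1 or 3, and G2 was above G1 by 0.61 (edgeR adjusted p = 0.000302). CENPP averaged 8.20 ± 2.31 CPM in G1, 20.2 ± 1.32 CPM in Early_S, 12.2 ± 2.49 CPM in Late_S and 15.4 ± 4.29 CPM in G2, with its highest libraries in Early_S (log2 difference of 1.30 ± 0.28 (SE), edgeR adjusted p = 0.000522, against G1). Its G2 level was above G1 by 0.90 (edgeR adjusted p = 0.017), lost without G1 replicate 2 or G2 replicate 2. CENPQ was the only member that fell in G2 against G1, and it fell already in Early_S: it had 16.5, 13.7 and 16.3 CPM in the G1 libraries, 9.23, 7.04 and 6.98 in Early_S, 3.36, 7.02 and 6.59 in Late_S and 6.06, 3.34 and 6.29 in G2. All 9 libraries of the later phases lay below all 3 of G1, and G2 differed from G1 by a log2 difference of -1.56 ± 0.36 (SE), edgeR adjusted p = 0.00105. Its fall in Early_S (edgeR adjusted p = 0.0336) was no longer called without G1 replicate 1 or 3 or Early_S replicate 2 or 3. CENPU, of the same group, had 38.91, 49.9 and 40.4 CPM in the G1 libraries, 51.7, 39.7 and 57.6 in Early_S, 42.1, 50.3 and 38.89 in Late_S and 38.2, 50.5 and 42.2 in G2, with overlapping phases (edgeR adjusted p = 0.688 over the phases).

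CENPC, the scaffold between CENP-A chromatin and the outer kinetochore, was among the members with the fewest reads. It had 4.96, 5.76 and 4.72 CPM in the G1 libraries, 4.39, 8.67 and 3.55 in Early_S, 3.25, 6.82 and 5.08 in Late_S and 3.003, 2.35 and 3.83 in G2. Neighbouring phases overlapped, and all G2 libraries lay below all of G1, with no call by edgeR (edgeR adjusted p = 0.483 over the phases; G2 against G1 -0.75, edgeR adjusted p = 0.318). CENPL and CENPN, which bind CENP-A nucleosomes as a pair, were not called over the phases either. CENPL had 6.15, 2.80 and 8.47 CPM in the G1 libraries, 8.38, 20.8 and 7.68 in Early_S, 10.6, 5.90 and 5.99 in Late_S and 6.23, 16.4 and 11.2 in G2 (edgeR adjusted p = 0.0923 over the phases). Early_S replicate 2 stood apart within its group, and the call in Early_S against G1 (log2 difference 1.08, edgeR adjusted p = 0.0464) went to 0.47 with adjusted p = 0.511 without it. The CENPL call was also lost with DESeq2 (log2 difference 1.07, adjusted p = 0.0796) and without G1 replicate 1 or 2. It was lost too with the replicate number as a block, with the largest region only and without multimapped reads. CENPN had 50.7, 36.3 and 53.6 CPM in the G1 libraries, 51.6, 67.4 and 56.5 in Early_S, 43.4, 49.8 and 49.5 in Late_S and 61.7, 46.3 and 51.7 in G2 (edgeR adjusted p = 0.269 over the phases). The histone-fold pair CENPT and CENPW gave 9.59, 9.54 and 8.07 CPM in the G1 libraries, 13.5, 12.3 and 12.1 in Early_S, 12.6, 11.9 and 13.0 in Late_S and 16.5, 12.5 and 13.5 in G2 for CENPT (edgeR adjusted p = 0.254 over the phases). CENPT lay higher in all later libraries than in G1 without a call by edgeR, while DESeq2 called G2 against G1 (log2 difference 0.64, adjusted p = 0.0375). CENPW had 64.5, 65.6 and 78.9 CPM in the G1 libraries, 68.9, 59.0 and 76.1 in Early_S, 63.6, 68.1 and 78.1 in Late_S and 79.5, 56.0 and 67.1 in G2, with overlapping phases (edgeR adjusted p = 0.986 over the phases; G2 against G1 95% interval -0.32 to 0.23 on the log2 scale).

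Both corona genes rose at both steps (all genes 12.5% higher in Early_S against G1 and 6.99% in Late_S against Early_S). CENPE, the plus-end directed kinesin of the kinetochore, had 2.82, 1.70 and 1.38 CPM in the G1 libraries, 3.19, 7.77 and 4.63 in Early_S, 15.6, 22.8 and 21.2 in Late_S and 18.2, 19.9 and 22.9 in G2. Late_S and G2 libraries did not overlap with those of Early_S or G1, and G2 was 10.3-fold above G1 (log2 difference of 3.37 ± 0.35 (SE), edgeR adjusted p = 5.69e-10). CENPF, a large coiled-coil protein, had 34.1, 35.3 and 46.6 CPM in the G1 libraries, 61.7, 59.1 and 55.6 in Early_S, 138, 123 and 117 in Late_S and 136, 140.4 and 131 in G2. The 3 libraries of each phase kept apart from the other phases except between G2 and Late_S. Early_S against G1 was at 0.61 ± 0.12 (SE) and Late_S against Early_S at 1.098 ± 0.12 on the log2 scale (edgeR adjusted p = 0.000217 and 1.31e-08).

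All 4 genes of the NDC80 complex, the main microtubule-binding unit, rose in Early_S against G1 (all genes 12.5%), and NUF2 rose again in Late_S. SPC25 had 17.4, 13.3 and 12.9 CPM in the G1 libraries, 64.9, 56.4 and 47.6 in Early_S, 57.7, 67.9 and 62.4 in Late_S and 67.3, 68.6 and 58.9 in G2. Its rise lay between G1 and Early_S (log2 difference of 1.956 ± 0.16 (SE), edgeR adjusted p = 1.31e-12). Late_S was not called against Early_S (log2 difference 0.15, 95% interval -0.14 to 0.45). In this gene 26.3% of reads mapped to several places, 26.7% in Early_S and 21.9% in G1 on average, so its counts are uncertain. Without such reads the difference was 1.87. NUF2 had 28.5, 20.7 and 28.8 CPM in the G1 libraries, 46.6, 48.9 and 42.6 in Early_S, 83.1, 89.7 and 79.0 in Late_S and 95.5, 76.8 and 103 in G2. It rose at both steps (log2 difference 0.83 in Early_S against G1 and 0.87 in Late_S against Early_S, edgeR adjusted p = 3.1e-05 and 2.74e-05). NDC80 averaged 16.1 ± 2.39 CPM in G1, 28.1 ± 1.957 CPM in Early_S, 37.1 ± 3.63 CPM in Late_S and 41.0 ± 5.74 CPM in G2, with G2 against G1 at a log2 difference of 1.35 ± 0.19 (SE), edgeR adjusted p = 3.26e-07. SPC24 averaged 40.6 ± 7.17 CPM in G1, 62.7 ± 1.05 CPM in Early_S, 53.9 ± 6.13 CPM in Late_S and 42.0 ± 1.46 CPM in G2; it was highest in Early_S, and G2 was not called against G1 (log2 difference 0.05, 95% interval -0.24 to 0.34).

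In the MIS12 complex and its partner only ZWINT, which docks on KNL1 and brings in the RZZ complex, was called over the phases. Of all genes 34.1% were called. ZWINT had 156, 206 and 185 CPM in the G1 libraries, 312, 348 and 317 in Early_S, 267, 287 and 255 in Late_S and 263, 273 and 277 in G2. All Early_S libraries lay above all others, with Early_S against G1 at a log2 difference of 0.84 ± 0.09 (SE), edgeR adjusted p = 8.36e-10. It fell in Late_S against Early_S (log2 difference -0.27, edgeR adjusted p = 0.0361), a call lost without any Early_S library and without Late_S replicate 1 or 3. The 3 MIS12 complex genes are structural subunits that bridge the inner layer to NDC80. DSN1 had 53.9, 53.0 and 49.2 CPM in the G1 libraries, 38.1, 34.7 and 36.1 in Early_S, 40.3, 38.0 and 49.8 in Late_S and 31.5, 42.3 and 49.6 in G2. It was not called over the phases (edgeR adjusted p = 0.0658), and it fell in Early_S against G1 (log2 difference of -0.52 ± 0.16 (SE), edgeR adjusted p = 0.0172), which was lost without G1 replicate 1 or Early_S replicate 2. MIS12 had 19.5, 13.1 and 15.3 CPM in the G1 libraries, 11.8, 18.2 and 12.1 in Early_S, 9.87, 13.1 and 13.5 in Late_S and 6.88, 9.93 and 13.0 in G2 (edgeR adjusted p = 0.237 over the phases). NSL1 had 48.6, 36.2 and 55.0 CPM in the G1 libraries, 34.3, 37.4 and 44.8 in Early_S, 43.6, 50.8 and 55.4 in Late_S and 50.8, 53.8 and 55.1 in G2 (edgeR adjusted p = 0.104 over the phases). For both, the libraries of neighbouring phases overlapped.

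The SKA complex strengthens the grip of NDC80 on microtubules. SKA1 and SKA3 of its 3 genes were called over the phases (all genes 34.1%). SKA3 averaged 42.6 ± 7.87 CPM in G1, 32.8 ± 8.14 CPM in Early_S, 56.1 ± 2.57 CPM in Late_S and 54.9 ± 6.69 CPM in G2. It rose in Late_S against Early_S (log2 difference of 0.77 ± 0.17 (SE), edgeR adjusted p = 0.00122). SKA1 averaged 26.5 ± 2.01 CPM in G1, 37.6 ± 3.12 CPM in Early_S, 37.7 ± 1.36 CPM in Late_S and 46.3 ± 11.3 CPM in G2, with G2 against G1 at a log2 difference of 0.80 ± 0.17 (SE), edgeR adjusted p = 0.000519. SKA2 had 296, 293 and 292 CPM in the G1 libraries, 306, 270.4 and 295 in Early_S, 312, 292 and 307 in Late_S and 302, 270.4 and 335 in G2 and was not called (edgeR adjusted p = 0.886 over the phases; G2 against G1 95% interval -0.12 to 0.20 on the log2 scale).

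Of the 6 checkpoint genes 5 rose in Late_S against Early_S, a step at which 6.99% of all genes were higher. In Early_S against G1 edgeR called 0 of the 6, where 12.5% of all genes were higher and 11.8% lower, and DESeq2 called 0. An unadjusted edgeR p under 0.05 was found there for 2 of the 6 and for 4728 of 13755 genes. BUB1B encodes BUBR1, a subunit of the mitotic checkpoint complex, and had 19.3, 22.1 and 15.9 CPM in the G1 libraries, 26.1, 19.8 and 15.8 in Early_S, 48.0, 60.1 and 49.8 in Late_S and 63.3, 74.7 and 69.2 in G2. Its G1 and Early_S libraries overlapped and lay below all of Late_S and G2 (Late_S against Early_S at a log2 difference of 1.35 ± 0.18 (SE), edgeR adjusted p = 4.97e-07). BUB1, the kinase that recruits other checkpoint proteins, averaged 10.2 ± 1.27 CPM in G1, 14.8 ± 3.04 CPM in Early_S, 28.7 ± 4.02 CPM in Late_S and 36.9 ± 3.18 CPM in G2. It rose by 0.96 ± 0.21 on the log2 scale at the same step (edgeR adjusted p = 0.00174). TTK, the kinase also called MPS1, averaged 6.58 ± 1.55 CPM in G1, 6.77 ± 4.48 CPM in Early_S, 18.4 ± 2.16 CPM in Late_S and 25.01 ± 8.003 CPM in G2. It rose by 1.44 ± 0.35 (edgeR adjusted p = 0.00448). BUB3, which carries BUB1 and BUBR1 to KNL1, averaged 211 ± 10.2 CPM in G1, 212 ± 9.91 CPM in Early_S, 258 ± 15.05 CPM in Late_S and 317 ± 29.7 CPM in G2. MAD2L1, the MAD2 inhibitor of CDC20, averaged 67.4 ± 6.20 CPM in G1, 56.2 ± 13.2 CPM in Early_S, 80.1 ± 1.71 CPM in Late_S and 99.3 ± 14.5 CPM in G2. Both rose in G2 against G1, by 0.59 and 0.56 on the log2 scale (edgeR adjusted p = 8.36e-07 and 0.00231). Their calls in Late_S against Early_S (log2 difference 0.29 and 0.51) were lost without Early_S replicate 2 or Late_S replicate 2 or 3 for BUB3 and without Early_S replicate 1 for MAD2L1. MAD1L1, the kinetochore anchor of MAD2, had 52.2, 88.2 and 55.9 CPM in the G1 libraries, 48.6, 59.6 and 48.3 in Early_S, 49.9, 53.9 and 58.4 in Late_S and 54.6, 54.0 and 68.9 in G2 and was not called (edgeR adjusted p = 0.304 over the phases).

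Of the CENP-A loading genes, HJURP and OIP5 rose in G2 against G1 (all genes 11.1% higher) and MIS18A was not called. HJURP, the chaperone that deposits CENP-A, had 32.4, 46.0 and 30.5 CPM in the G1 libraries, 49.6, 53.9 and 48.6 in Early_S, 65.6, 75.6 and 76.7 in Late_S and 85.5, 71.6 and 74.9 in G2. G1 replicate 2 reached close to the Early_S libraries, and G2 was above G1 by a log2 difference of 1.09 ± 0.15 (SE), edgeR adjusted p = 2.09e-07. Its rise in Early_S against G1 (0.48, edgeR adjusted p = 0.0129) was lost without G1 replicate 1 or 3, and that in Late_S against Early_S (0.52, edgeR adjusted p = 0.0143) without Early_S replicate 3 or Late_S replicate 2 or 3. OIP5 and MIS18A encode the paired subunits of the MIS18 complex that prepares centromeres for loading. OIP5 averaged 55.3 ± 14.8 CPM in G1, 78.7 ± 18.8 CPM in Early_S, 96.3 ± 3.96 CPM in Late_S and 104 ± 11.3 CPM in G2 (log2 difference of 0.92 ± 0.15 (SE), edgeR adjusted p = 8.95e-06, G2 against G1). MIS18A had 86.2, 96.4 and 79.1 CPM in the G1 libraries, 80.0, 73.1 and 65.8 in Early_S, 67.3, 89.98 and 93.3 in Late_S and 86.7, 88.6 and 93.2 in G2 and was not called (edgeR adjusted p = 0.215 over the phases; G2 against G1 95% interval -0.21 to 0.28 on the log2 scale).

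**Figure D2:**
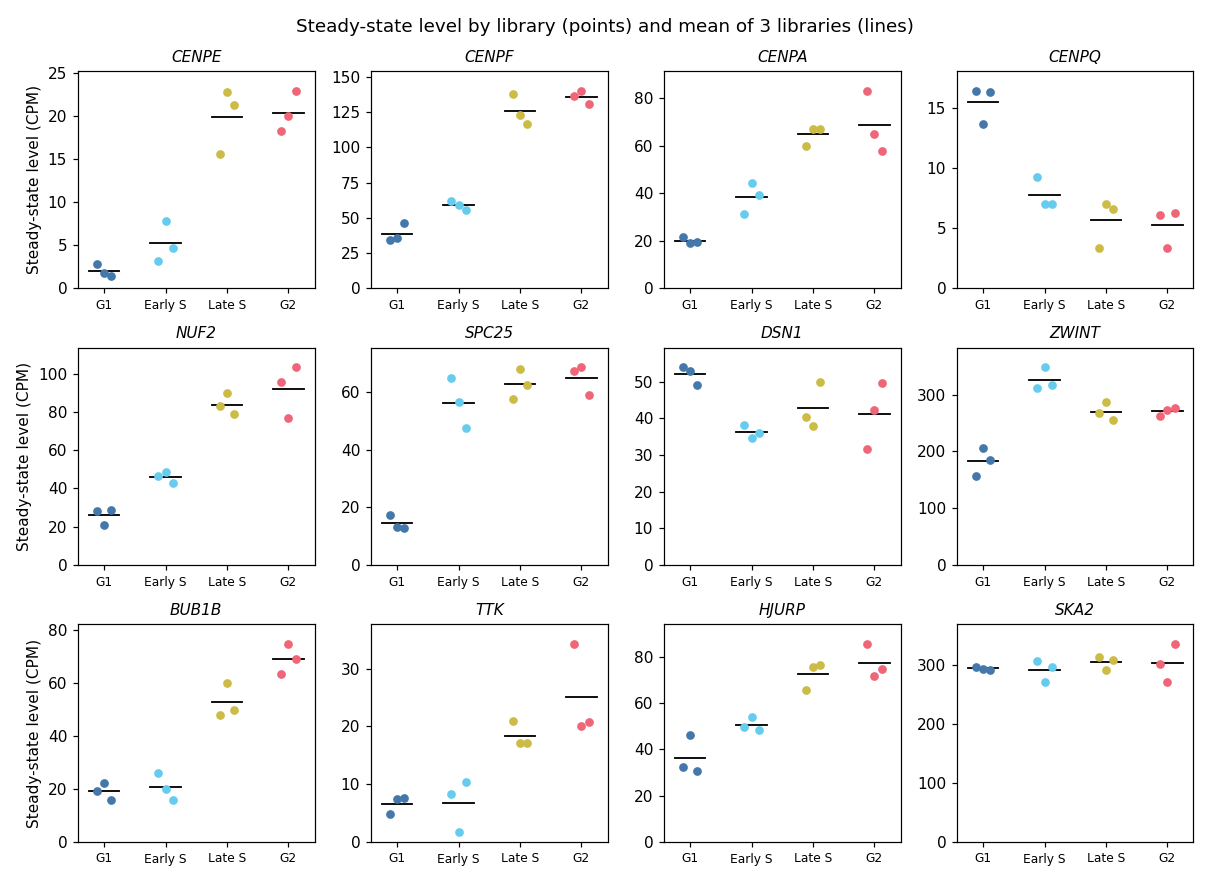
Steady-state level in CPM (vertical axis from 0, a scale of its own for each gene) of 12 members in G1, Early_S, Late_S and G2; points are libraries and lines the mean of 3. SPC25 stands high from Early_S on, ZWINT is highest in Early_S, BUB1B and TTK stand near their G1 level in Early_S, CENPQ is highest in G1, and SKA2 lies between 270.4 and 335 CPM.

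Nascent levels, which carry 9.77 to 22.8% of the reads, changed over the phases for 9 members against 10.4% of all genes: CENPA, CENPE, CENPF, NDC80, NUF2, DSN1, BUB1B, BUB3 and HJURP. By edgeR, Early_S was higher than G1 for 4 members and lower for none (3.69% of all genes higher, 1.48% lower). Late_S was higher than Early_S for 4 and lower for none (1.72% and 1.81%). The genes were CENPA, CENPE, CENPF and HJURP at both steps. DESeq2 called 5 at the first step, all higher, and 5 higher and 1 lower at the second. An unadjusted edgeR p under 0.05, either way, was found for 10 members and 1692 of 11474 genes at the first step. At the second it was found for 13 members and 1802 genes. G2 was higher than G1 for 8 and lower for 1, DSN1 (4.40% and 2.90%). Between G2 and Late_S edgeR and DESeq2 each called 0 (0.0174% higher and 0.0349% lower among all genes). An unadjusted edgeR p under 0.05 was found there for 1 member and for 1158 of 11474 genes.

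These directions are relative to the bulk of nascent RNA. Scaled by all reads instead, the median gene's T>C reads shifted by -0.37 in Early_S against G1, -0.86 in Late_S against Early_S and -1.25 in G2 against G1 on the log2 scale. Under that scaling 4 members stayed higher in G2 than in G1, CENPA (1.40), CENPE (1.98), CENPF (0.70) and HJURP (0.85), and 18 were called lower. Among all genes 62 of 11474 were called higher and 6070 lower. NDC80, NUF2 and BUB1B were no longer called (0.55, 0.11 and 0.62), and BUB3 turned to -0.36. In Early_S against G1 CENPA stayed higher (1.28), while CENPE, CENPF and HJURP were no longer called (1.44, 0.68 and 0.57, edgeR adjusted p = 0.113, 0.067 and 0.055). NSL1 and MIS18A were called lower there (-1.11 and -0.78), where 193 of all genes were higher and 772 lower. No member was called higher in Late_S than in Early_S under that scaling, where 11 of all genes were higher and 3933 lower.

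HJURP had the smallest nascent p of the members. Its nascent level was 111.9, 191 and 92.3 CPM in the G1 libraries, 224, 274 and 245 in Early_S, 395, 446 and 528 in Late_S and 623, 529 and 490.1 in G2. The phases kept apart up to Late_S, and G2 stood 4.16-fold above G1 (log2 difference of 2.06 ± 0.20 (SE), edgeR adjusted p = 1.84e-08). Its call in Early_S against G1 was lost without G1 replicate 3 and that in Late_S against Early_S without Late_S replicate 3. CENPF had 56.3, 55.8 and 91.2 CPM in the G1 libraries, 163, 113 and 143 in Early_S, 273, 243 and 259.9 in Late_S and 270.2, 276 and 233 in G2. G2 and Late_S overlapped and lay above the rest, and the call in Late_S against Early_S (log2 difference 0.89, edgeR adjusted p = 0.0115) went to adjusted p = 0.102 without Early_S replicate 2, and it was lost without Late_S replicate 1. CENPA had 44.2, 20.2 and 38.3 CPM in the G1 libraries, 79.3, 143 and 106 in Early_S, 246, 191 and 223 in Late_S and 315, 157 and 170.1 in G2. Its G2 replicate 1 was above all other libraries, and its call in Late_S against Early_S (edgeR adjusted p = 0.0421) was lost without any of the Late_S libraries, Early_S replicate 1 or 3, or G1 replicate 3, while Early_S against G1 held in every alternative (log2 difference 1.67, edgeR adjusted p = 0.000346).

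CENPE nascent levels were 8.75, 5.89 and 2.86 CPM in the G1 libraries, 9.04, 30.6 and 22.1 in Early_S, 40.9, 93.2 and 79.6 in Late_S and 56.3, 52.8 and 52.7 in G2, with G2 against G1 at a log2 difference of 3.20 ± 0.53 (SE), edgeR adjusted p = 0.000132. Its calls at the single steps were each lost when any of 4 libraries was left out (G1 or Early_S replicate 2 or 3 for the first step, Early_S replicate 1 or 3 or Late_S replicate 2 or 3 for the second). In the NDC80 complex NDC80 had the smallest nascent p, with 18.2, 40.7 and 28.8 CPM in the G1 libraries, 56.0, 59.3 and 57.2 in Early_S, 92.8, 83.1 and 95.5 in Late_S and 87.1, 120.3 and 91.5 in G2. All 9 later libraries lay above all of G1 (log2 difference of 1.77 ± 0.32 (SE), edgeR adjusted p = 0.000467, G2 against G1). NUF2 averaged 44.2 ± 5.504 CPM in G1, 82.6 ± 14.3 CPM in Early_S, 106 ± 25.1 CPM in Late_S and 111 ± 49.6 CPM in G2. It rose in G2 against G1 (log2 difference 1.33, edgeR adjusted p = 0.00798), a call lost without G2 replicate 3. The nascent level of SPC25, whose steady-state level rose, was not called. It averaged 19.8 ± 1.95 CPM in G1, 32.0 ± 11.1 CPM in Early_S, 14.3 ± 15.1 CPM in Late_S and 23.7 ± 11.3 CPM in G2 (edgeR adjusted p = 0.641 over the phases; Early_S against G1 95% interval -0.57 to 1.963 on the log2 scale). SPC24 averaged 54.1 ± 12.2 CPM in G1, 46.6 ± 16.9 CPM in Early_S, 37.8 ± 11.3 CPM in Late_S and 31.8 ± 21.5 CPM in G2 (edgeR adjusted p = 0.694 over the phases).

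DSN1 was the only member whose nascent level fell in G2 against G1 by edgeR. It had 98.7, 129.9 and 81.6 CPM in the G1 libraries, 90.4, 62.8 and 93.3 in Early_S, 45.9, 49.4 and 34.5 in Late_S and 49.1, 39.7 and 53.6 in G2, with all libraries of Late_S and G2 below those of G1 and Early_S (G2 against G1 at a log2 difference of -1.12 ± 0.31 (SE), edgeR adjusted p = 0.0246). Without G1 replicate 1 or 2, or G2 replicate 1 or 2, adjusted p was 0.0518 to 0.163. ZWINT, MIS12 and NSL1 were not called, with G2 against G1 at -0.48, -0.89 and -0.23 on the log2 scale. Among checkpoint genes, BUB3 had 328, 269.5 and 296 CPM in the G1 libraries, 334, 419.7 and 323 in Early_S, 391, 511 and 457 in Late_S and 555, 417 and 657 in G2. BUB1B had 27.4, 38.94 and 21.7 CPM in the G1 libraries, 49.8, 16.6 and 17.0 in Early_S, 59.7, 99.3 and 46.1 in Late_S and 118, 89.6 and 104 in G2. The G2 libraries of BUB1B lay above all of G1 and Early_S, and those of BUB3 above all of G1 (log2 differences of G2 against G1 1.83 ± 0.42 for BUB1B and 0.87 ± 0.16 for BUB3, edgeR adjusted p = 0.00485 and 0.000533), BUB3 turning negative when scaled by all reads, as given above. BUB1 and TTK had differences of 1.80 ± 0.60 and 1.52 ± 0.67 and were not called (edgeR adjusted p = 0.0663 and 0.197); DESeq2 called BUB1 (adjusted p = 0.0391). MAD2L1 and MAD1L1 were at 0.24 and 0.17.

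In the SKA complex the smallest nascent p was that of SKA3, with 96.5, 115 and 63.3 CPM in the G1 libraries, 90.6, 79.3 and 59.2 in Early_S, 106, 131 and 122 in Late_S and 90.4, 73.2 and 129 in G2. All Late_S libraries lay above all of Early_S and the other neighbouring phases overlapped (edgeR adjusted p = 0.439 over the phases). SKA1 and SKA2 were not called (G2 against G1 0.50 and 0.23 on the log2 scale). Of the inner genes other than CENPA, edgeR called 0 of 13, where 4.40% of all genes were higher and 2.90% lower in G2 against G1. DESeq2 called 1 (CENPQ). An unadjusted edgeR p under 0.05 was found for 3 of the 13 and for 2228 of 11474 genes. The G2 against G1 differences of the 13 ran from -2.67 for CENPQ (edgeR adjusted p = 0.0663) to 1.74 for CENPT (edgeR adjusted p = 0.192). CENPQ had nascent levels of 29.8, 14.3 and 41.9 CPM in the G1 libraries, 9.81, 10.5 and 6.13 in Early_S, 5.53, 31.2 and 6.99 in Late_S and 0.552, 2.27 and 10.3 in G2. Late_S replicate 2 reached the G1 libraries, and the other 8 later libraries lay below them; DESeq2 called its G2 against G1 difference (-2.69, adjusted p = 0.0231). MIS18A and OIP5 were at 0.01 and 0.50 in G2 against G1 and were not called. Without alkylation 18.1% of MIS18A reads carried T>C changes, against a labelled share of 21.5% in G2. Its nascent values are therefore not a clean measure of new RNA.

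**Figure D3:**
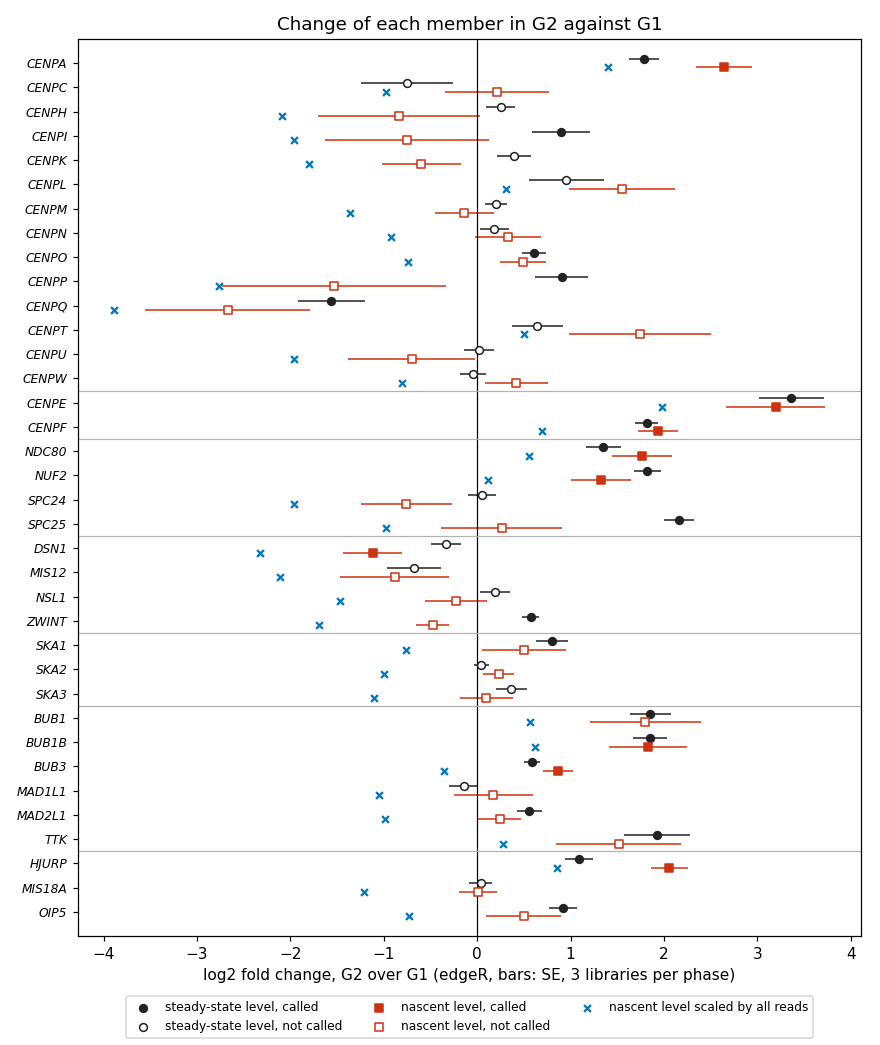
Log2 fold change of G2 over G1 for each member (rows, by subcomplex), with bars of 1 SE from 3 libraries per phase; black circles are steady-state levels and red squares nascent levels, filled where called, and blue crosses nascent levels scaled by all reads. CENPA, CENPE, CENPF, NDC80, NUF2, BUB1B, BUB3 and HJURP are filled to the right of 0 in both, CENPQ (steady-state) and DSN1 (nascent) to the left, and the cross of BUB3 lies left of 0.

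The labelled share asks how much of a gene's RNA was made during the 45 min of labelling. It also depends on how many T bases a read covers, from 11.4 per read for MAD1L1 to 27.1 for ZWINT, so shares are compared across phases within a gene and between genes only as a description. The median member had 37.4% in G1, 27.6% in Early_S, 12.5% in Late_S, with 12.1% in G2, and the median gene of all genes had 27.2%, 20.6%, 10.0% and 9.43%. The share was highest in G1 for 24 members and in Early_S for 12. That of the median gene was highest in G1 too, and the count was not made over all genes. Since the median gene's share differed between phases, the fit tests the odds of T>C against other reads relative to the bulk of genes, and log2 differences below are of those odds.

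On that scale the share changed over the phases for 6 members, against 14.8% of all genes. In Early_S against G1 it rose for 1 (HJURP) and fell for 1 (ZWINT), where 4.29% of all genes were higher and 1.07% lower. In Late_S against Early_S it fell for 3 (DSN1, MAD2L1 and HJURP) and rose for none (2.33% higher, 5.95% lower). An unadjusted edgeR p under 0.05, either way, was found there for 8 members and 2263 of 11291 genes. In G2 against G1 the share fell for 3, CENPK, SPC25 and ZWINT (4.43% of all genes higher, 4.45% lower). There 9 members and 2449 genes had an unadjusted p under 0.05. Between G2 and Late_S edgeR called 0 (0.0177% higher, 0.0266% lower), and 2 members and 949 genes had an unadjusted p under 0.05.

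ZWINT had labelled shares of 37.3, 34.1 and 36.9% in the G1 libraries, 15.7, 15.6 and 13.5% in Early_S, 7.46, 7.01 and 7.60% in Late_S and 6.88, 6.41 and 8.89% in G2. The Early_S libraries lay below all of G1 and above all of Late_S and G2, and the odds relative to the bulk of genes fell at the step into Early_S (log2 difference of -1.30 ± 0.18 (SE), edgeR adjusted p = 2.39e-05). At the next step their log2 difference was 0.01 (95% interval -0.33 to 0.36). At the first step its steady-state level rose 1.79-fold while its nascent level was -0.11 on the log2 scale (edgeR adjusted p = 0.886). SPC25 had 30.2, 30.2 and 34.8% in the G1 libraries, 11.9, 11.5 and 7.59% in Early_S, 1.60, 4.65 and 0.367% in Late_S and 1.70, 4.57 and 4.41% in G2, with G2 against G1 at a log2 difference of -2.16 ± 0.62 (SE), edgeR adjusted p = 0.0288, lost without any G1 library or without G2 replicate 1. CENPK had 40.4, 38.0 and 37.9% in the G1 libraries, 31.7, 27.2 and 26.1% in Early_S, 7.32, 6.92 and 6.32% in Late_S and 4.84, 6.29 and 11.6% in G2 (log2 difference of G2 against G1 -1.43, edgeR adjusted p = 0.0386). In CENPK too that call ended when any G1 library, G2 replicate 1 or 2, or Early_S replicate 1 or 3 was left out.

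HJURP kept a high labelled share throughout: 82.4, 88.7 and 73.2% in the G1 libraries, 87.1, 89.9 and 94.0% in Early_S, 59.0, 59.5 and 67.6% in Late_S and 72.2, 68.0 and 66.8% in G2. It lay above 95.8% of the 13143 genes with at least 10 reads on average in G1 and above 97.0% of them in G2. Its rise in Early_S against G1 (log2 difference 1.43, edgeR adjusted p = 0.0118) was lost without G1 replicate 3 or Early_S replicate 3 and when scaled by all reads, and its fall in Late_S against Early_S (-1.38, edgeR adjusted p = 0.00899) without Early_S replicate 3. CENPC averaged 82.5 ± 9.62% in the G1 libraries, 89.99 ± 5.18% in Early_S, 69.8 ± 5.64% in Late_S and 66.4 ± 28.6% in G2. CENPE averaged 66.1 ± 13.9% in the G1 libraries, 71.1 ± 17.2% in Early_S, 34.7 ± 7.999% in Late_S and 26.2 ± 3.90% in G2. At the low end CENPH averaged 12.8 ± 5.22% in the G1 libraries, 4.56 ± 2.94% in Early_S, 3.84 ± 3.62% in Late_S and 2.43 ± 0.944% in G2. CENPP averaged 22.6 ± 14.3% in the G1 libraries, 11.1 ± 4.47% in Early_S, 0.912 ± 1.27% in Late_S and 1.87 ± 1.94% in G2. Member means ran from 12.8% to 82.5% in G1 and from 1.87% to 69.0% in G2.

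DSN1 had labelled shares of 43.7, 52.5 and 40.2% in the G1 libraries, 45.8, 31.9 and 48.2% in Early_S, 11.2, 13.1 and 6.80% in Late_S and 15.4, 8.64 and 11.02% in G2. All libraries of G1 and Early_S lay above those of Late_S and G2, and the log2 difference of Late_S against Early_S was -1.53 (edgeR adjusted p = 0.0238), lost without Early_S replicate 1 or 3 or Late_S replicate 3. MAD2L1 had 49.6, 50.3 and 52.3% in the G1 libraries, 43.9, 38.1 and 50% in Early_S, 17.5, 13.3 and 16.1% in Late_S and 15.6, 18.6 and 17.1% in G2. Its phases kept apart in the same way. Its log2 difference of Late_S against Early_S was -0.93 (edgeR adjusted p = 0.0301), lost without Early_S replicate 1 or 3 or Late_S replicate 2 or 3. In the share itself such a gap was common. For 28 of the 36 members all Late_S libraries lay below all of Early_S, and the median gene went from 20.6% to 10.0%. Such gaps were not counted over all genes, so the count only describes the members. BUB1 averaged 41.2 ± 13.8% in the G1 libraries, 42.2 ± 12.7% in Early_S, 7.58 ± 6.88% in Late_S and 16.8 ± 8.52% in G2. CENPF averaged 40.2 ± 6.78% in the G1 libraries, 44.3 ± 9.26% in Early_S, 20.4 ± 1.26% in Late_S and 18.6 ± 0.838% in G2. NDC80 averaged 40.9 ± 8.67% in the G1 libraries, 38.1 ± 3.11% in Early_S, 24.2 ± 1.04% in Late_S and 23.7 ± 2.38% in G2. None of the 3 was called. Above the median gene stood 26 of the 36 members in G1, 22 in Early_S, 22 in Late_S, with 24 in G2.

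**Figure D4:**
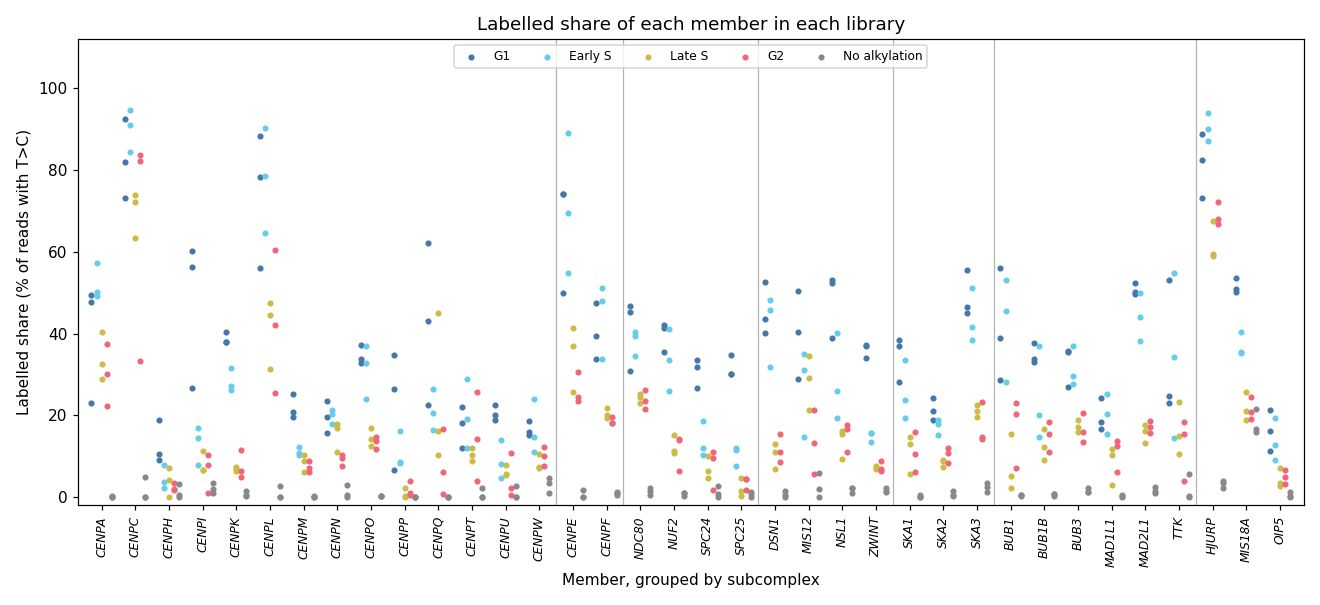
Labelled share (percentage of a member's reads with a T>C change, vertical axis) in each library, for the 36 members by subcomplex; colours are the 4 phases and No_alkylation. G1 and Early_S points lie above Late_S and G2 for most members, HJURP and CENPC have the highest means in every phase, and the No_alkylation points lie near 0 except for MIS18A.

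The background without alkylation was low. In the alkylated libraries the odds of T>C reads were higher than in No_alkylation for 35 of the 36 members (all genes 84.4%). MIS18A was the exception: its labelled share was 51.5 ± 1.77% in G1 and 21.5 ± 2.81% in G2 (SD, n = 3 each), against 1113 of 6151 reads (18.1%) in No_alkylation. The log2 difference of odds was 1.09 (edgeR adjusted p = 0.0828). No background was taken off the T>C reads, so the nascent levels and labelled shares of MIS18A include it under either scaling. HJURP had 3.23%, CENPW 3.09%, MIS12 2.65% and SKA3 2.43% in No_alkylation. The lowest phase mean of CENPW was 8.43%, in Late_S. CENPH had 1.26% without alkylation, with libraries from 0 to 3.30%, which overlapped its G2 libraries (1.86 to 3.52%). The low labelled shares of CENPH and CENPW therefore include background too. CENPP and CENPQ had 0 T>C reads among 644 and 338 reads there, which allows a share of up to 0.466% and 0.888% for counting error only. CENPP's own shares in Late_S, 0 to 2.36%, included values below that limit. The steady-state level in No_alkylation lay within the range of the 4 phase means for 16 members, above it for 12 and below it for 8. These positions were not counted over all genes, so they only describe the members.

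Where members have several 3′ regions, their use was a description. CENPN's second region by reads took 26.7 ± 1.74% of its reads in G1, 38.1 ± 3.29% in Early_S, 37.4 ± 3.50% in Late_S, with 37.3 ± 9.19% in G2 (SD, n = 3). SKA3's second region took 36.8 ± 2.85% in G1, 36.6 ± 3.70% in Early_S, 29.0 ± 0.739% in Late_S, with 26.7 ± 8.29% in G2. The region with the most reads was at chr4:103105806-103106221, minus strand (hg38) for CENPE, chr2:168870894-168871430, minus strand for SPC25, chr6:49492276-49493107, plus strand for CENPQ, chr10:56357228-56358459, minus strand for ZWINT and chr2:233836701-233837576, minus strand for HJURP. These are regions of the 3′ end annotation the counts were made on. Regions of CENPN, CENPO, CENPP, CENPT, CENPU and HJURP overlap a gene of the opposite strand (AC092718.8, ADCY3, IPPK, TSNAXIP1, PRIMPOL and MROH2A in that order), and whether counting used strand is not given in the sources used here.

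Another 30 kinetochore and centromere genes were looked up in the same fits. Their steady-state level changed over the phases for 21 of 30 (all genes 34.1%). It rose in Early_S against G1 for 12 and fell for 4 (all genes 12.5% and 11.8%), rose in Late_S against Early_S for 10 and fell for 1 (6.99% and 4.25%), and rose in G2 against G1 for 19 and fell for 1 (11.1% and 10.0%). Their median G2 against G1 difference was 0.45 on the log2 scale. The smallest p belonged to PLK1, the mitotic kinase, KIF2C, the microtubule-depolymerising kinesin MCAK, CDC20, the activator of the anaphase-promoting complex that the checkpoint inhibits, and CDCA8, the borealin subunit of the chromosomal passenger complex. Their G2 against G1 log2 differences were 1.998, 1.83, 1.03 and 1.86. KIF2C, CDC20 and CDCA8 also rose in G2 against Late_S, by 0.58, 0.50 and 0.59 (edgeR adjusted p = 0.00208, 0.00154 and 0.0346), a step at which edgeR called no member and DESeq2 called BUB3. In the other direction, MAD2L1BP, which helps switch the checkpoint off, fell in G2 against G1 (log2 difference -0.62, edgeR adjusted p = 0.00964), and KNTC1, a subunit of the RZZ complex, fell in Early_S against G1 (-1.52, edgeR adjusted p = 0.00183). On nascent levels, 12 of the 29 tested changed over the phases (all genes 10.4%), 9 rising and 1 falling in G2 against G1 (all genes 4.40% and 2.90%). On labelled shares 9 of 29 changed over the phases (all genes 14.8%).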

How the data were processed

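SLAM-seq libraries of sorted U2OS cells were deposited as tables of the slamdunk tool (version 0.2.4), per the file headers, mapped to hg38, per the submitters' processing notes, with 68625 3′ regions per table. The authors' deposited columns used are read counts, T>C read counts, multimapped read counts and T coverage counts, not normalized; the deposited CPM and conversion rate (fraction) columns entered no test.

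Regions were summed by gene name. Steady-state and nascent levels and labelled shares were fitted across all genes with edgeR 4.0.16 in R 4.3.3 (TMM, filterByExpr with at least 10 counts, glmQLFit, Benjamini-Hochberg adjustment), on the 12 alkylated libraries. Labelled shares were fitted on T>C and other reads as separate columns with library as a term; all 15 libraries entered the test against No_alkylation. Standard errors are the log2 difference divided by the square root of F. DESeq2 1.42.0 was an alternative for levels, not for shares, as were RLE size factors, no filter, scaling by all reads, the largest region of each gene, no multimapped reads, and each library left out. The fits were tested on simulated data. Libraries of the same replicate number deviated together at most weakly, and replicates differed by more than counting noise. PCR duplicates were not told apart.

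The members, gene lists and motifs were chosen with earlier results of these data known. Named by rule were all members, with library values for those of smallest p in a subcomplex and for those that fell or were not called, and of the other kinetochore genes up to 4 each way with the smallest p. Promoter windows came from RefSeq tables.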

Additional observations from a re-analysis of the deposited data

How the results depend on the processing

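Of the 19 members called for the steady-state level in G2 against G1, 17 kept the call in every alternative run, and CENPI and CENPP did not; of the 17 called in Early_S against G1, 10 did, and of the 14 called in Late_S against Early_S, 8 did. Of the 9 nascent calls in G2 against G1, 4 were kept in all alternatives. Over all member log2 differences and alternatives, 7379 values kept their side of the threshold, 6151 of them called in neither fit (329 of these with the other sign). A further 113 lost and 103 gained a call in the same direction, and 22 that were called in either fit turned sign, all of these under scaling by all reads.

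That scaling raised the members called for nascent levels from 9 to 24 over the phases. In Late_S against Early_S they rose from 4 to 12 and in G2 against G1 from 9 to 22. Of all 11474 genes tested, those called rose from 1192 to 6340, from 405 to 3944 and from 838 to 6132 in the same order. For labelled shares the members called rose from 6 to 30, from 3 to 22 and from 3 to 30. Of all 11291 genes, those called rose from 1676 to 7120, from 935 to 5088 and from 1002 to 7238. The shift of the bulk of T>C reads described above enters these values by construction. Nascent log2 differences that turned were, in Late_S against Early_S, -0.52 for BUB3 and -0.51 for MIS18A, and in G2 against G1, -0.92 for CENPN, -0.74 for CENPO, -0.80 for CENPW, -0.998 for SKA2, -1.11 for SKA3, -0.36 for BUB3, -1.05 for MAD1L1, -0.98 for MAD2L1 and -1.21 for MIS18A. Labelled share log2 differences that turned were, in Late_S against Early_S, -1.07 for CENPW, -1.14 for ZWINT, -1.12 for BUB3 and -1.08 for MIS18A, and in G2 against G1, -1.26 for CENPN, -0.87 for CENPW, -1.55 for CENPF, -1.15 for NDC80, -1.24 for SKA2, -1.29 for BUB3 and -1.06 for HJURP. DESeq2 called 1 member, BUB3, in G2 against Late_S where edgeR called 0; the cause was not tested.

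Leaving out each library in turn gave 22 to 25 members called over the phases for the steady-state level, 12 to 17 in Early_S against G1, 9 to 14 in Late_S against Early_S, 0 to 0 in G2 against Late_S and 17 to 20 in G2 against G1. For nascent levels it gave 7 to 12, 2 to 5, 1 to 4, 0 to 0 and 8 to 10, for labelled shares 4 to 7, 1 to 3, 0 to 5, 0 to 0 and 1 to 3 in the same order, and against No_alkylation 33 to 35. Without Late_S replicate 3 the steady-state calls in Late_S against Early_S numbered 9 and the nascent ones 1; without G1 replicate 3 nascent calls in Early_S against G1 numbered 2; without Early_S replicate 3, Late_S replicate 1 or Late_S replicate 2 nascent calls in Late_S against Early_S numbered 2. For labelled shares, Late_S against Early_S gave 0 without Early_S replicate 3, 1 without Early_S replicate 1 or Late_S replicate 3 and 5 without G2 replicate 1; Early_S against G1 gave 1 without G1 replicate 3 or Early_S replicate 3; G2 against G1 gave 1 without any G1 library or G2 replicate 1.

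Replicate numbers in the labels are shared by the phases, but libraries of the same number deviated together at most weakly (correlation of deviations -0.0166 to 0.0308 for all reads and -0.0168 to 0.0922 for T>C reads over 18 pairs each). Pairs of different numbers gave -0.0328 to 0.0189 for all reads and -0.0622 to 0.0405 for T>C reads (36 pairs each). These values cannot tell whether libraries of a number shared a culture or sort. With the replicate number as a block, members called, in the order of comparisons just used, numbered 23, 16, 14, 0 and 19 for the steady-state level, 9, 3, 3, 0 and 10 for nascent levels and 6, 2, 3, 0 and 3 for labelled shares.

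Nascent values are limited by depth in Late_S and G2, where libraries held fewest T>C reads, so that an uncalled nascent difference there does not show equal levels.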
